A study of Mus musculus with 3 samples.

Results

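The 6 myosin heavy chains Myh1, Myh2, Myh4, Myh7, Myh3 and Myh8 and the 3 myosin binding proteins Mybpc1, Mybpc2 and Mybph were followed in mouse gastrocnemius muscle. They were chosen by name as thick filament isoforms of slow, fast and developmental fibres. All 9 genes were measured, by 14 of the 45101 probe sets of an Affymetrix mouse whole-genome array, where several short probes that target 1 transcript make up a probe set. In all, 18193 genes had a probe set with a single gene symbol. The tissue came from male C57BL/6J mice that changed diet at 6 weeks of age and stayed on it for 15 weeks, whereas the age in the sample labels reads 21 months. The HF+SFC group received the high-fat diet D12492 (60% of energy from fat) with added sodium ferrous citrate, an iron supplement, at 0.023% of its weight, the HF group the same diet without the supplement, and the Control group the diet D12450B (10% of energy from fat). Each group was 1 array of cDNA mixed from all its samples, so that 3 arrays were compared, the differences have no replicate check and were not tested. The deposited MAS5 signals were scaled to a trimmed mean of 500.004 on every array, and their medians were 68.0 in HF+SFC, 67.4 in HF and 63.6 in Control.

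Myosin heavy chains are the motor proteins of the thick filament, and the isoform a fibre carries sets how fast it contracts and how quickly it uses ATP. Myh7 encodes the slow isoform, Myh2 the fast oxidative IIa, Myh1 the fast IIx and Myh4 the fastest, IIb, which prevails in the gastrocnemius of rodents. Myh3 and Myh8 encode the embryonic and perinatal isoforms, which adult limb fibres shut off and use again during regeneration. Myosin binding proteins hold to the thick filament and tune the reach of myosin heads to actin. Mybpc1 encodes the slow type and Mybpc2 the fast type of myosin binding protein C, and Mybph encodes the smaller relative myosin binding protein H.

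Of these genes, 5 lie in a cluster on chromosome 11, in the order Myh3, Myh2, Myh1, Myh4 and Myh8, while Myh7 lies on chromosome 14, Mybpc1 on 10, Mybpc2 on 7 and Mybph on 1. The 250 bases before the start site (RefSeq, GRCm38.p6) are printed for the adult fast isoforms and their perinatal neighbour, to show what the neighbours share, and for Myh7 and Mybph, whose signals differed most between the arrays among the bright members. The windows are chr11:67199852-67200101 (+ strand) for Myh1, chr11:67170777-67171026 (+) for Myh2, chr11:67237562-67237811 (+) for Myh4, chr11:67276874-67277123 (+) for Myh8, chr14:54994550-54994799 (- strand, the start site nearer the coding part of those listed) for Myh7 and chr1:134193198-134193447 (+) for Mybph. Capitals mark the longest run shared by the fast isoforms, and in Myh8 the part of it that Myh8 holds too. In Myh7 and Mybph they mark E-boxes (CANNTG) and MCAT motifs (CATTCC on either strand).
Myh1: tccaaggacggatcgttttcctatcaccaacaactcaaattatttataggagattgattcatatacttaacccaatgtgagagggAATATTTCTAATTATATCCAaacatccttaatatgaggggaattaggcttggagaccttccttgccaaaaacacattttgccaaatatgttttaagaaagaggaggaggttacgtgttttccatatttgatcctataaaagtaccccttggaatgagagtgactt
Myh2: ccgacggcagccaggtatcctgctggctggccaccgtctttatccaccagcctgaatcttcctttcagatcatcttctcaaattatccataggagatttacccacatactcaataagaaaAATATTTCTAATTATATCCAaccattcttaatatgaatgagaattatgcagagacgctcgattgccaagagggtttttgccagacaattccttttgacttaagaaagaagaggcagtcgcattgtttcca
Myh4: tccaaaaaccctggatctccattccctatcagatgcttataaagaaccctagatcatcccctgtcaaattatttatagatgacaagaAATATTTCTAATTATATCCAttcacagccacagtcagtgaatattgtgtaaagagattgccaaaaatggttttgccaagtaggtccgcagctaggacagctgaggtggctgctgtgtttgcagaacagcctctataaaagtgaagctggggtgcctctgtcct
Myh8: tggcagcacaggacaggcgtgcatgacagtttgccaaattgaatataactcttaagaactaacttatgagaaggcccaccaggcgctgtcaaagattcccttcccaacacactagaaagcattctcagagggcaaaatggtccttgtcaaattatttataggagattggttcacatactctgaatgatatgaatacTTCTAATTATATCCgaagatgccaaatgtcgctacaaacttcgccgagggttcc
Myh7: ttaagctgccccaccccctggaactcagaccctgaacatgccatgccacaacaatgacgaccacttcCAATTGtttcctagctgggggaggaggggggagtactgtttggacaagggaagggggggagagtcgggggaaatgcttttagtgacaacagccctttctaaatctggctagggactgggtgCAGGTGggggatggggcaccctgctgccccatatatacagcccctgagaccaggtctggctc
Mybph: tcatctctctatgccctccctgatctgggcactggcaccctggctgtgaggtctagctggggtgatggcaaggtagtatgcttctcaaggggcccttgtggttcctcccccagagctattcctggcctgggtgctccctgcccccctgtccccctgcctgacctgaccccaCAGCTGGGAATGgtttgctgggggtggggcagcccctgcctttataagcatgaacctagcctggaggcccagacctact
The run shared by Myh1, Myh2 and Myh4 was 20 bases long and began 165, 130 and 163 bases before their start sites. Among 32851 such windows of the mouse genome, these 3 alone held it, which is 0.00913%. The 14 bases of it that Myh8 shares were found in 4 windows (0.0122%), those of these 4 genes. Of the 9 genes, 7 had an E-box in the window, against 66.2% of all windows, and 4 had an MCAT motif, against 12.6%. In Mybph the E-box, 79 bases before the start, stood directly against the MCAT motif. The MEF2 motif was found in Myh1, Myh4 and Myh8 (2.92% of all windows), TATAAA in 5 genes (12.4% of all windows), and the CArG motif in Myh4 only (1.47% of all windows). Motifs were searched on both strands, a TATAAA may overlap a MEF2 match, and a match describes the letters of the window.

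**Figure D1:**
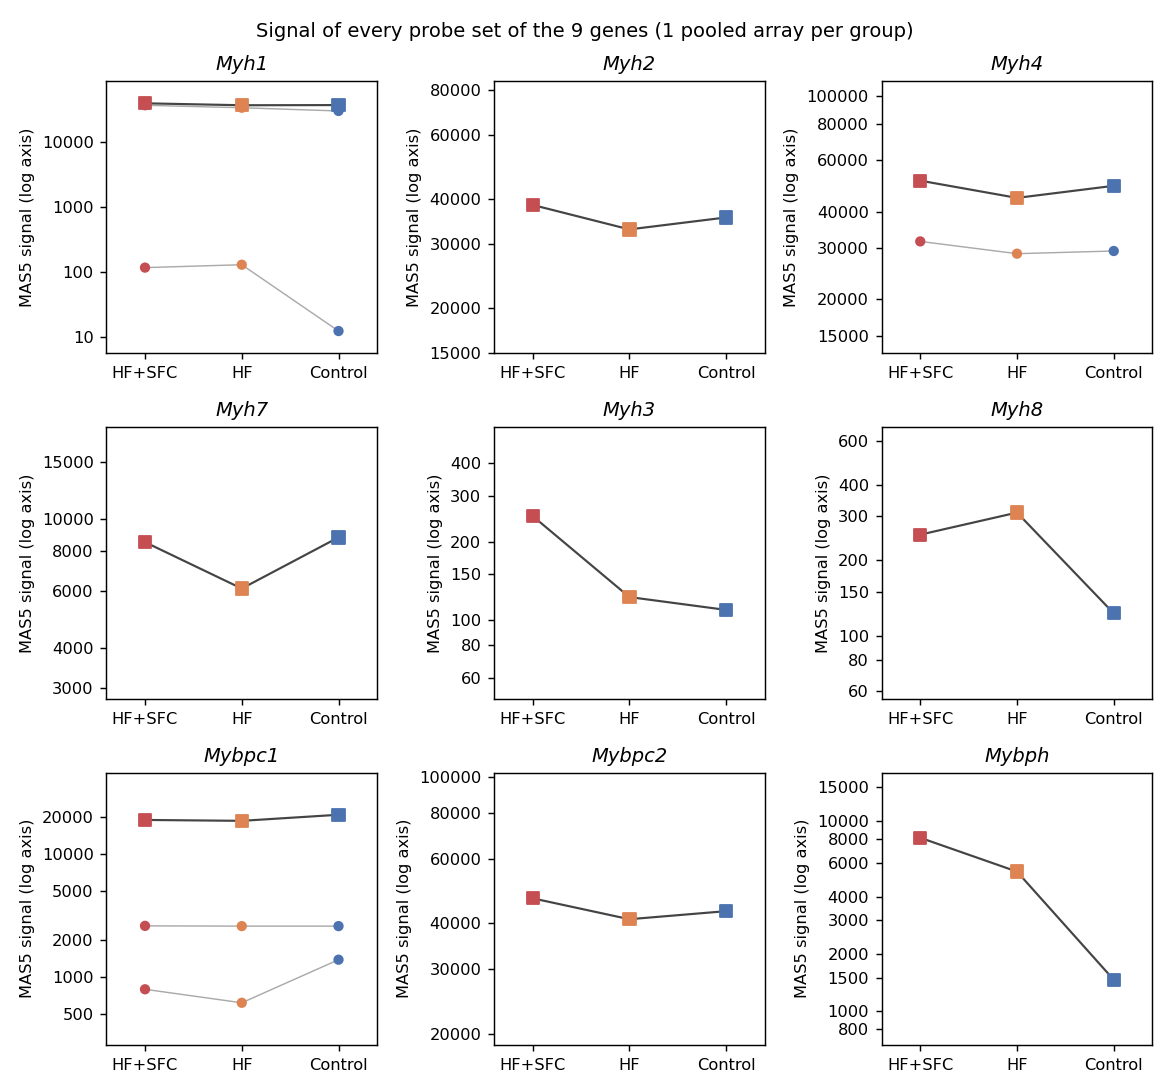
MAS5 signal (log axis, a range of its own in each panel) of every probe set of the 9 genes on the HF+SFC, HF and Control arrays, 1 pooled sample each. Squares are the brightest probe set of a gene and circles its other probe sets; Mybph is lowest in Control at 1460, and Myh7 is lowest in HF at 6099.

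Mybph, of all members on their brightest probe sets, differed most between the arrays. Its single probe set (1419487_at) read 8145 in HF+SFC, 5407 in HF and 1460 in Control. The HF signal was 3.70-fold the Control signal (log2 ratio 1.89), the HF+SFC signal 1.51-fold the HF signal (0.59) and 5.58-fold the Control signal (2.48). Both high-fat arrays thus lay well above Control, and the HF+SFC array lay above the HF array. Among 6707 genes whose brightest probe set had a mean log2 signal above the 75th percentile of all probe sets, Mybph held place 5 from the top for the ratio of HF to Control, place 20 from the top for HF+SFC to HF, and place 2 for HF+SFC to Control. In HF against Control, 17% of all genes and 1.52% of these brighter genes were at least 1.5-fold higher. For HF+SFC against HF the shares were 13.7% and 0.298%, and for HF+SFC against Control 16.5% and 0.939%. Under the alternative scalings and the offset the log2 ratio of HF to Control stayed between 1.81 and 2.05. That of HF+SFC to HF, just above the 1.5-fold threshold of 0.58, ranged from 0.33 to 0.59. The filters and the mean over probe sets left both ratios unchanged, since Mybph has a single probe set.

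Myh7, the slow isoform, was lowest in HF. Its probe set (1448553_at) read 8490 in HF+SFC, 6099 in HF and 8784 in Control. The log2 ratio was -0.53 in HF against Control (0.694-fold) and 0.48 in HF+SFC against HF (1.39-fold), so that HF+SFC and Control differed by -0.05 on this scale. Neither of the larger ratios reached 1.5-fold, but among the 6707 bright genes Myh7 held place 110 from the bottom for HF to Control and place 54 from the top for HF+SFC to HF. These comparisons share the HF array, and a single low reading there enters both. With the arrays scaled on 7 general skeletal muscle markers, a setting chosen after seeing the data, the ratios were -0.37 and 0.22. With the arrays centred on their medians, HF against Control gave -0.61, past 1.5-fold. The HF array also had the highest ratio of 3' to 5' beta-actin signal (1.15 in HF+SFC, 1.52 in HF and 1.09 in Control), whose part in this result was not tested. In pooled whole muscle, fewer slow fibres and less Myh7 RNA per fibre cannot be told apart.

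Most of the other slow fibre genes listed were lower in HF as well. Of 11 slow fibre markers, which include slow troponins, the slow myosin light chains Myl2 and Myl3 and the calcium pump Atp2a2, 9 were lower in HF than in Control (3 of them at least 1.5-fold), with a median log2 ratio of -0.44 and a median over all genes of 0.01. Against HF, HF+SFC had 9 of the 11 higher and 2 lower, with a median of 0.35 (all genes 0.01), and none passed 1.5-fold. Myoz2, a Z-disc protein, had the lowest ratio of HF to Control (7006 in HF+SFC, 6409 in HF and 10173 in Control), and Tnnc1, slow troponin C, the highest of HF+SFC to HF (7059 in HF+SFC, 4754 in HF and 7094 in Control). Casq2, the slow and cardiac calsequestrin, went the other way, with 1181 in HF+SFC, 1486 in HF and 965 in Control, 1.54-fold higher in HF than in Control. Csrp3 did so too, with log2 ratios of 0.09 in HF against Control and -0.32 in HF+SFC against HF. The members of this marker list were written with earlier results of these arrays known and are no independent evidence of a direction.

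**Figure D2:**
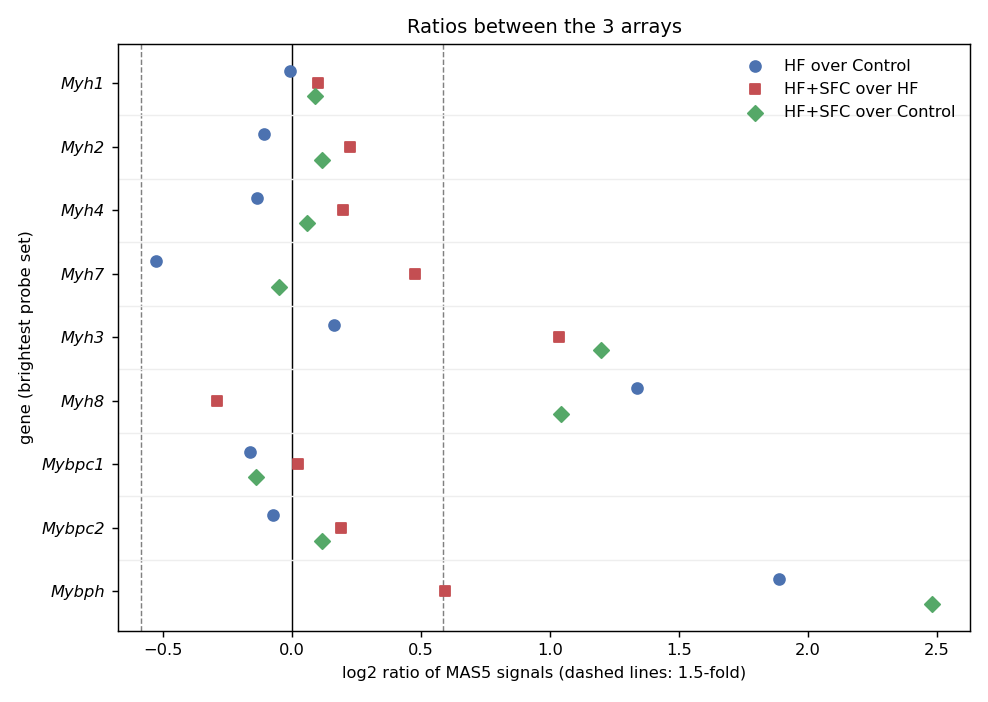
Log2 ratio of MAS5 signals (x axis) on the brightest probe set of each gene (y axis) for HF over Control (circles), HF+SFC over HF (squares) and HF+SFC over Control (diamonds), with dashed lines at 1.5-fold. Mybph and Myh8 lie past the line in HF over Control, and Mybph and Myh3 in HF+SFC over HF.

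The adult fast isoforms differed little between the arrays. Myh4, isoform IIb, read 51107 in HF+SFC, 44594 in HF and 49066 in Control on its brightest probe set (1427026_at), with log2 ratios of -0.14 in HF against Control and 0.20 in HF+SFC against HF. Its other probe set (1458368_at) read 31600 in HF+SFC, 28676 in HF and 29292 in Control, with log2 ratios of -0.03 and 0.14. Myh2, isoform IIa, read 38417 in HF+SFC, 32879 in HF and 35478 in Control (1425153_at), with log2 ratios of -0.11 and 0.22. For both genes the HF array was lowest and the HF+SFC array highest. Among general muscle genes, 6 of 7 skeletal muscle markers such as Ckm, Acta1 and Ttn lay below Control in HF (median log2 ratio -0.11) and all 7 lay above HF in HF+SFC (0.21). All 12 fast fibre markers were lower in HF (median -0.13) and all 12 higher in HF+SFC than in HF (0.21). When the arrays were scaled on the 7 skeletal muscle markers, the ratios of HF to Control were 0.05 for Myh2 and 0.02 for Myh4, and those of HF+SFC to HF -0.04 and -0.06, so that each direction turned. Between Myh7 and Myh4 the log2 ratio of HF to Control differed by 0.39, and that of HF+SFC to HF by -0.28 (Myh4 minus Myh7), which no scaling of a whole array by 1 factor can change.

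Myh1, isoform IIx, gave different pictures on its 3 probe sets. The brightest (1427868_x_at), of a kind that can also bind transcripts of other genes, read 39778 in HF+SFC, 37131 in HF and 37356 in Control, with a log2 ratio of -0.01 in HF against Control and 0.10 in HF+SFC against HF. The next (1427520_a_at) read 37102 in HF+SFC, 33997 in HF and 30322 in Control, log2 ratios of 0.17 and 0.13. The dimmest (1452465_at) read only 118 in HF+SFC, 131 in HF and 12.5 in Control, a ratio of HF to Control of 10.5. On the Control array this reading lay at percentile 19.2 of all probe sets and on the HF array at percentile 61.0. The dim probe set and the next brightest carry the same sequence accession in the array annotation. The bright probe sets gave ratios of HF to Control of 0.994 and 1.12, so that the direction of Myh1 differed between them, and that of the brightest also turned with quantile normalization (0.05) and with scaling on muscle markers (0.15). Fast myosin heavy chain genes are close in sequence, and how much RNA of a neighbour each probe set binds was not tested.

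**Figure D3:**
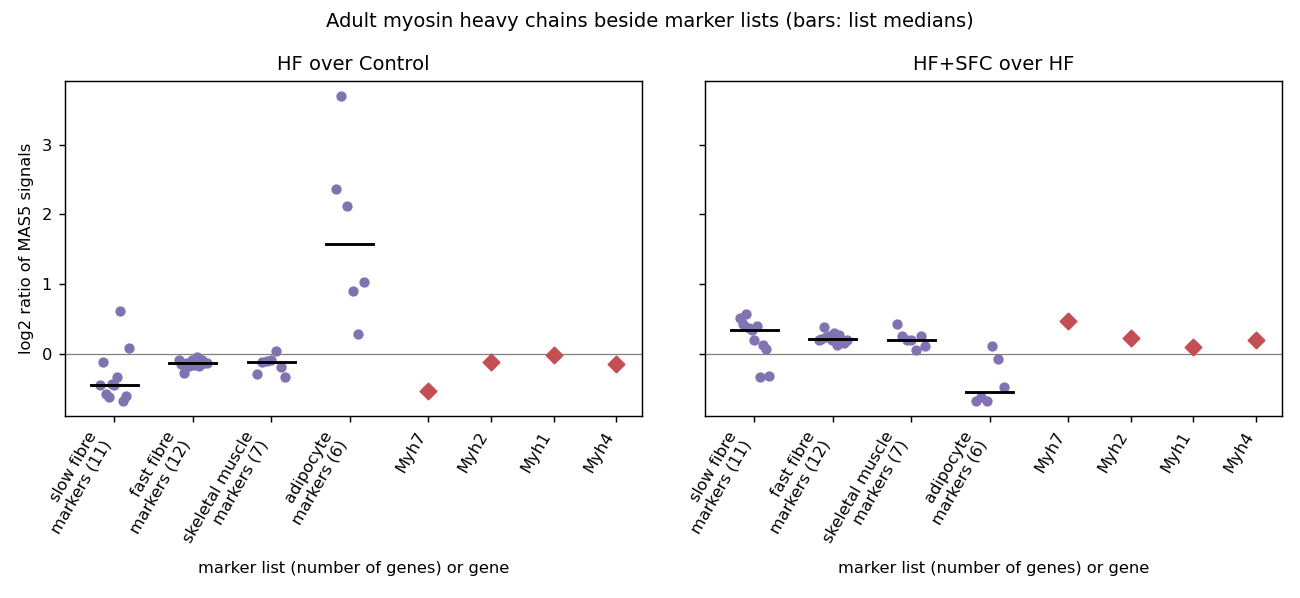
Log2 ratios of MAS5 signals (y axis) in HF over Control (left) and HF+SFC over HF (right) for 4 marker lists (circles, 1 per gene, with a bar at the median) and the adult myosin heavy chains (diamonds). Myh7, at -0.53 and 0.48, lies farther from 0 than Myh2, Myh1 and Myh4 in both panels.

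Of the developmental isoforms, Myh8 was higher on both high-fat arrays and Myh3 on the HF+SFC array. Myh8, the perinatal isoform, read 253 in HF+SFC, 310 in HF and 123 in Control (1426650_at), a ratio of HF to Control of 2.53 (log2 1.34) and of HF+SFC to HF of 0.816 (log2 -0.29). Myh3, the embryonic isoform, read 251 in HF+SFC, 122 in HF and 109 in Control (1427115_at), a ratio of HF to Control of 1.12 (log2 0.16) and of HF+SFC to HF of 2.05 (log2 1.03). So the 2 genes did not share an order over the arrays, although both were lowest in Control. Their readings lay between percentiles 59.0 and 72.2 of their arrays, where ratios spread more. Among 4879 genes between the median and the 75th percentile of signal, 12.1% were at least 1.5-fold higher in HF than in Control, 7.24% in HF+SFC than in HF, and 10.2% in HF+SFC than in Control. Each gene had 1 probe set, so that no other probe set could serve as a check.

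Genes that regenerating or denervated fibres use did not share a direction. Of 20 measured, HF against Control had 9 higher and 11 lower (median log2 ratio -0.05), and HF+SFC against HF 13 higher and 7 lower (0.06). Among those with bright signals, Ankrd1, a stretch-responsive gene, had 711 in HF+SFC, 683 in HF and 408 in Control, and Gadd45a, a growth arrest gene that rises in denervated muscle, had 999 in HF+SFC, 941 in HF and 1812 in Control. Myog, the myogenic factor of differentiation, read 273 in HF+SFC, 247 in HF and 331 in Control. Myod1, the factor that commits cells to muscle, read 531 in HF+SFC, 577 in HF and 536 in Control. Among dim genes, Runx1 read 132 in HF+SFC, 113 in HF and 47.1 in Control. Chrne, also dim, read 258 in HF+SFC, 221 in HF and 152 in Control. On this list, 2 genes passed 1.5-fold upward and 2 downward for HF against Control. For HF+SFC against Control these counts were 3 and 1.

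Mybpc1 and Mybpc2, the main myosin binding proteins C of skeletal muscle, were close on the 3 arrays. Mybpc2 (1455736_at) read 46792 in HF+SFC, 41043 in HF and 43173 in Control, with log2 ratios of -0.07 in HF against Control and 0.19 in HF+SFC against HF. After quantile normalization these were 0.02 and -0.02. Mybpc1 on its brightest probe set (1455645_at) read 19049 in HF+SFC, 18733 in HF and 20990 in Control, log2 ratios of -0.16 and 0.02, of which the second turned to -0.051 after quantile normalization. A dimmer probe set of Mybpc1 (1442769_at) read 800 in HF+SFC, 622 in HF and 1393 in Control, a ratio of HF to Control of 0.446, while the remaining one (1444341_at) read 2623 in HF+SFC, 2611 in HF and 2611 in Control. The slow and the fast form of protein C thus differed far less between HF and Control than protein H did, by 0.892-fold and 0.951-fold against 3.70-fold.

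**Figure D4:**
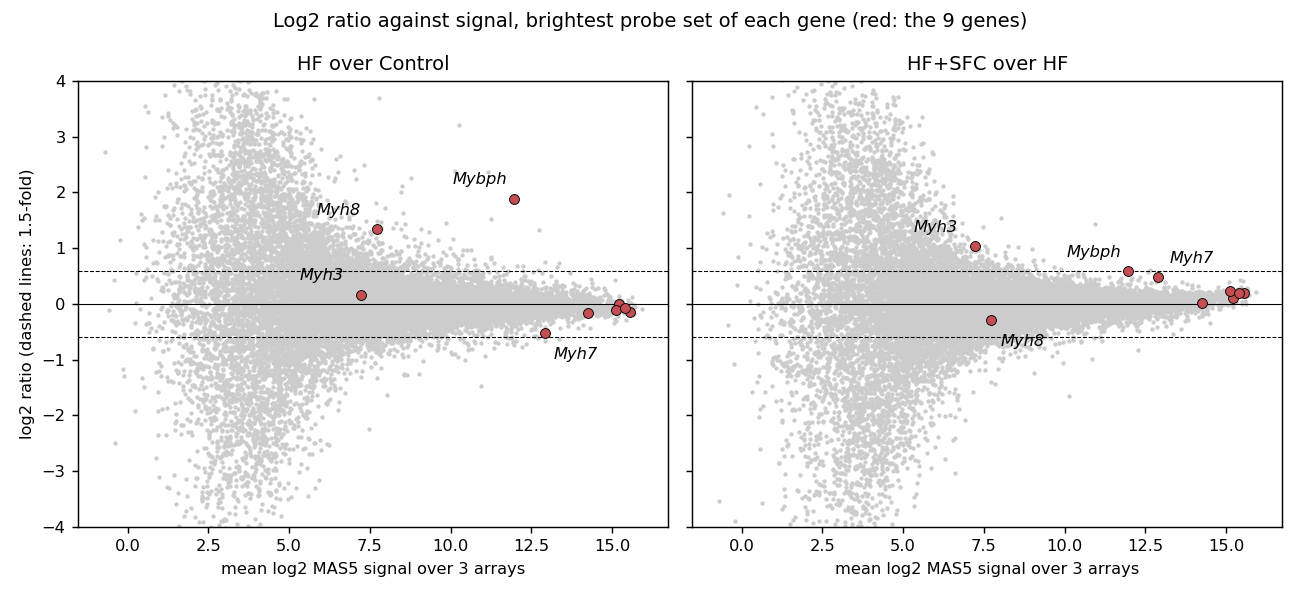
Log2 ratio (y axis, cropped, which leaves out 253 of 18193 genes in at least 1 panel) against the mean log2 MAS5 signal over the 3 arrays (x axis) for HF over Control (left) and HF+SFC over HF (right). Grey points are all genes and red points the 9 members; Mybph stands above nearly all genes of like signal at 1.89 in the left panel, and the spread widens towards dim genes such as Myh3 and Myh8.

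Over the 9 genes, 2 were at least 1.5-fold higher in HF than in Control (Mybph and Myh8), against 17% of all genes, and none was 1.5-fold lower, against 12.2%. The median log2 ratio was -0.07 for the members and 0.01 for all genes. For HF+SFC against HF, 2 were at least 1.5-fold higher (Mybph and Myh3), against 13.7% of all genes, and none lower, against 13.5%, with medians of 0.20 and 0.01. Between HF+SFC and Control, 3 were at least 1.5-fold higher (Mybph, Myh3 and Myh8), against 16.5% of all genes, and none lower, against 12.4%, with medians of 0.11 and 0.02. Bright genes pass the threshold less often, so the shares of all genes are not matched to the members' signals. For 275 genes with a mean log2 signal above 14, a range that holds Myh1, Myh2, Myh4, Mybpc1 and Mybpc2, the median log2 ratio was -0.07 in HF against Control and 0.11 in HF+SFC against HF.

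Partners of myosin in the thick filament had medians near 0, and the wide ratios among them were on dim probe sets. Of 13 myosin light chains and their kinases, 7 were lower in HF than in Control and 9 higher in HF+SFC than in HF, with medians of -0.03 and 0.11. Myl3, a slow light chain, had the lowest ratio of HF to Control among the bright ones (20236 in HF+SFC, 17568 in HF and 23834 in Control), and Myl2 the highest of HF+SFC to HF (16699 in HF+SFC, 13121 in HF and 17739 in Control). Of the 13, 2 were at least 1.5-fold higher in HF than in Control, both dim. Myl6b read 8.19 in HF+SFC, 29.9 in HF and 6.65 in Control, and Mylk3, the cardiac light chain kinase, read 32.4 in HF+SFC, 33.1 in HF and 10.3 in Control. Among 11 thick filament and M-band scaffold genes, HF had 7 below Control (median -0.08) and HF+SFC had 9 above HF (0.12). Here Ckm, muscle creatine kinase, had 50185 in HF+SFC, 37327 in HF and 45640 in Control. Trim63, the ubiquitin ligase MuRF1 that acts on myosin, had 17039 in HF+SFC, 19731 in HF and 22109 in Control, lowest in HF+SFC. Of 9 genes of myosin folding and assembly, HF had 6 below Control (median -0.03) and HF+SFC had 5 below HF (-0.03). Unc45b, the myosin chaperone, had 8491 in HF+SFC, 8134 in HF and 9331 in Control, and its dimmer relative Unc45a 125 in HF+SFC, 63.6 in HF and 161 in Control, a log2 ratio of HF to Control of -1.34. The 8 measured myosin heavy chains and binding proteins outside the members, mostly cardiac, smooth muscle or nonmuscle, split evenly in HF against Control (4 higher and 4 lower, median 0.03), while HF+SFC against HF had 3 higher and 5 lower (-0.03). Among bright ones Myh14, a nonmuscle heavy chain, had 819 in HF+SFC, 714 in HF and 843 in Control. Past 1.5-fold in HF against Control were the dim Myh6, a cardiac heavy chain, with 34.0 in HF+SFC, 7.67 in HF and 54.8 in Control, and the dim Mybphl, with 51.2 in HF+SFC, 88.7 in HF and 38.7 in Control.

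Of 29 regulators of fibre type, HF against Control had 15 higher and 14 lower (median log2 ratio 0.04), and HF+SFC against HF 11 higher and 18 lower (-0.03). The bright gene with the lowest ratio of HF to Control was Tead1, whose protein binds the MCAT motif, with 7832 in HF+SFC, 6811 in HF and 9078 in Control. Rcan1, a calcineurin inhibitor that is also a calcineurin target, had the lowest ratio of HF+SFC to HF, with 4170 in HF+SFC, 5842 in HF and 5230 in Control. Esrrg had the highest ratio of HF to Control among the bright genes, with 2112 in HF+SFC, 2540 in HF and 2187 in Control. Ppargc1b had the highest of HF+SFC to HF, with 797 in HF+SFC, 665 in HF and 601 in Control. Ppargc1a went the other way, with 1803 in HF+SFC, 2515 in HF and 2991 in Control, a log2 ratio of HF+SFC to HF of -0.48. Sox6, a repressor of slow fibre genes, read 8118 in HF+SFC, 8999 in HF and 8192 in Control, a log2 ratio of HF to Control of 0.14. The part of any of these genes in the ratios of Myh7 was not tested.

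By distance in the 2 log2 ratios (HF to Control and HF+SFC to HF) over the 3 arrays, Tars2, Ints12 and Sirt3 were nearest to Myh7 among 6700 other bright genes, at distances of 0.02 to 0.04. The nearest to Mybph was G0s2, an inhibitor of fat breakdown, at a distance of 0.66, followed by Cdh4 and BC048679, so that no bright gene had ratios close to those of Mybph. G0s2 read 1368 in HF+SFC, 1276 in HF and 466 in Control. Myh1 (Ppp1r21, Ndufb5 and Cux1), Myh2 (Coa7, Nup88 and Gpc4), Myh4 (Cbx5, Micos10 and Sort1), Mybpc1 (Rev1, Amz2 and Ikbkb) and Mybpc2 (Kazald1, Slc7a6 and Atp9b) each had 3 genes within a distance of 0.0082. Such a likeness rests on 3 arrays only.

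Markers of other cell types differed between the same arrays. All 6 measured adipocyte markers lay above Control in HF (median log2 ratio 1.58), with a summed signal of 29945 in HF+SFC, 33476 in HF and 23268 in Control. Most of this sum was Fabp4, with 25306 in HF+SFC, 26497 in HF and 21626 in Control. All 8 fibroblast and matrix markers were higher in HF too (median 0.50), as were 6 of 7 tendon markers (0.38), 7 of 8 leukocyte markers (0.33), 4 of 6 endothelial (0.09), 4 of 5 smooth muscle (0.11), and 2 of 3 each of the Schwann cell (0.33) and erythroid markers (0.18). Of the adipocyte markers, 5 of 6 lay below HF in HF+SFC (median -0.54), and for the same comparison the medians were -0.06 for fibroblasts, -0.06 for tendon, 0.00 for leukocytes, -0.02 for endothelium, -0.21 for smooth muscle, -0.19 for Schwann cells and 0.10 for erythroid cells. No marker was listed at 0, but some read very low. Cd79a, a leukocyte marker, read 31.7 in HF+SFC, 8.70 in HF and 3.76 in Control. Hba-a1, an erythroid marker, read 49.7 in HF+SFC, 4.58 in HF and 1.47 in Control. Every measured erythroid marker lay below the 75th percentile of signal. In HF+SFC against HF the log2 ratios of single adipocyte markers ran from -0.67 to 0.12, with -0.67 for Adipoq and -0.07 for Fabp4. Beside the beta-actin ratios given for Myh7, which gauge how intact the RNA was, the 3' to 5' ratio of Gapdh was 0.820 in HF+SFC, 0.832 in HF and 0.842 in Control. The part of other cell types and of RNA quality in the members' differences was not tested.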

How the data were processed

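Gastrocnemius of HF+SFC, HF and Control mice was measured on 1 array per group, after the cDNA of a group's samples had been mixed, per the design text. The values deposited by the authors are MAS5 intensities on a linear scale, named in the submitters' processing notes without a version. The precision is limited by the number of arrays, and detection calls were not used here. Probe sets were named by the array annotation: of 45101, 64 were controls, 34945 had 1 gene symbol, 932 several and 9160 none, and only those with 1 symbol were used. Each gene was read from the probe set with the highest mean log2 signal, called its brightest, and log2 ratios had no offset. A gene was counted past 1.5-fold, a fold that the study's figure legends use. All member probe sets were described. Of 17 other gene lists, the genes named were mainly the highest and lowest ratios among genes above the 75th percentile of signal, beside the 3 genes nearest each bright member. Acta1, Atp2a2, Myog, Myod1, Sox6 and Ttn (for their roles) and Csrp3 and Ppargc1a (for their direction) were added after their values were seen. So were Chrne, Mybphl, Myh6, Myl6b, Mylk3, Runx1 and Unc45a (for their wide ratios) and Cd79a and Hba-a1 (for their low readings). The members and lists were chosen with earlier results of these data known. Sequences came from RefSeq (GRCm38.p6). Alternatives were a mean over a gene's probe sets, quantile normalization, median centring, an offset of 50, removal of dim probe sets or of those that can bind several transcripts, a 2-fold threshold and, chosen after seeing the data, scaling on 7 skeletal muscle markers. The steps were tested on simulated data. Python 3.11.15, numpy 2.4.6, pandas 2.3.3, scipy 1.17.1 and matplotlib 3.10.9 were used.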

Additional observations from a re-analysis of the deposited data

How the results depend on the processing

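The ratios of single members were recomputed 189 times, and 161 kept their direction and their side of 1.5-fold. The others were mostly ratios near 0. Many of the 161 could not have differed, so this count overstates how firm the ratios are. Leaving out dim probe sets removed no member's brightest probe set and changed no ratio. Leaving out probe sets that can bind several transcripts changed only Myh1, and the mean over probe sets only Myh1, Myh4 and Mybpc1. The direction of Mybph, Myh3, Myh7 and Myh8 held under all alternatives run, in all 3 comparisons. Each of these genes has a single probe set, so the mean over probe sets and the 2 filters left its ratios unchanged. For them only the scalings and the normalization could have turned a direction, since an offset added to both signals keeps their order. In HF against Control, quantile normalization gave 0.0488 for Myh1 and 0.0211 for Mybpc2 and a median of 0.0211 over the members, against -0.07 as deposited. In HF+SFC against HF it gave -0.0255 for Myh1, -0.051 for Mybpc1 and -0.0211 for Mybpc2, a median of 0.0269 in place of 0.20, and 1 member past 1.5-fold. In HF+SFC against Control it gave -0.0406 for Myh4. Median centring left 1 member past 1.5-fold in HF+SFC against HF, and gave -0.0057 for Myh1 and -0.0375 for Myh4 in HF+SFC against Control. At 2-fold, 1 member passed in HF+SFC against HF. The mean of all probe sets gave 1.18 for Myh1 in HF against Control, and with only probe sets specific to 1 transcript, which left its dim one, Myh1 had 3.39 in HF against Control and -0.15 in HF+SFC against HF. In HF+SFC against Control these settings gave 1.21 and 3.24 for Myh1, against 0.09 on its brightest probe set. Under both, the members past 1.5-fold were 3 in HF against Control, against 2 on the brightest probe sets, and 4 in HF+SFC against Control, against 3. Median centring also gave 3 in HF against Control.

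Scaling on 7 skeletal muscle markers, chosen after seeing the data, moved the median of all genes to 0.16 in HF against Control and -0.25 in HF+SFC against HF. In HF against Control it gave 0.15 for Myh1, 0.0474 for Myh2, 0.0193 for Myh4 and 0.0842 for Mybpc2, with a members' median of 0.0842. In HF+SFC against HF it gave -0.16 for Myh1, -0.0351 for Myh2, -0.063 for Myh4, -0.24 for Mybpc1 and -0.0706 for Mybpc2, with a median of -0.063 and 1 member past 1.5-fold. In HF+SFC against Control it gave -0.0119 for Myh1 and -0.0437 for Myh4, with a median of 0.0123. The cause of these changes was not tested. No paired analysis was possible because each group had 1 pooled sample. With 1 array per group, the spread between samples is unknown. Dimness was gauged only by signal percentiles, shares of genes in a signal band, an offset and a filter. Compression at the top of the signal range was not examined as a limit. Myh3 and Myh8 read between percentiles 59.0 and 72.2 of all probe sets, and the dim Myh1 probe set at 60.0 in HF+SFC, 61.0 in HF and 19.2 in Control.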
